A study of Homo sapiens with 4 samples.

Results

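Nalm-6 cells lacking Arp5 (Arp5 KO) were compared with wild-type cells (WT) on 2 of the 4 arrays of the series, 1 array for each, taken by the genotype in their labels. The study asked what the actin-related proteins Arp5 and Arp8 do in gene expression by the INO80 complex in human cells. Nalm-6 is a human pre-B cell line, and in the Arp5 KO line both alleles of *ACTR5*, the gene of Arp5, had been disrupted by gene targeting. The cells were grown in the same medium with no treatment named, and each genotype is a single cell line. Arp8 KO cells and cells labelled as overexpressing Arp8 are on the other 2 arrays, and their values are given only where they help to place a gene. All 4 arrays were read in 1 scan.

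The INO80 complex is an ATP-dependent chromatin remodeler that moves nucleosomes and acts in transcription, DNA replication and DNA repair. Its catalytic subunit carries separate modules of smaller proteins, and Arp5 belongs to the module that grips the nucleosome and couples ATP hydrolysis to its movement, while Arp8 sits with actin on another part of the catalytic subunit. Pre-B cells are precursors that have assembled an immunoglobulin heavy chain and carry it on the surface with the surrogate light chain.

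The signals fit the Arp5 KO label. Signal is given in the arbitrary units of the deposited files, and each log2 ratio or fold was taken after the arrays were scaled to the same upper quartile. The *ACTR5* probe gave 1909 units in WT, 65.3 in Arp5 KO, 1849 in Arp8 KO and 2088 in the Arp8 overexpression sample, a log2 ratio of -4.85 between Arp5 KO and WT (28.8-fold). Only the Arp5 KO array is low. Where the probe lies relative to the disrupted exons is not known, so the value says how much of the probed stretch of mRNA was present and nothing of the protein. Among the 20 measured genes nearest to *ACTR5* on its chromosome, 10 on each side, the log2 ratios ran from -0.41 to 0.53 with a median of 0.07. Of them 0 were beyond 2-fold, against 1.15% higher and 1.38% lower of all genes.

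The cells on both arrays carried the transcripts of pre-B cells. All 13 pre-B markers on the array were well above background on all 4 arrays. Against 1.15% higher and 1.38% lower of all genes, 0 of them differed beyond 2-fold between Arp5 KO and WT, and their median log2 ratio was -0.09. Their summed signal was 368948 units in WT and 376274 in Arp5 KO. *IGLL1*, which encodes a chain of the surrogate light chain, was the brightest of them at 140475 units in WT, 140829 in Arp5 KO, 136612 in Arp8 KO and 140425 in the Arp8 overexpression sample. The same gene is bright and level across the genotypes. Plasma cell markers were bright as well, with a sum of 166680 units in WT and 153957 in Arp5 KO, most of it from the brightest, *XBP1*, a transcription factor of the unfolded protein response, at 145259 and 132868. Signals of different probes and lists of different length cannot be compared strictly, so the sums for other cells only describe the arrays: the summed signal in WT and Arp5 KO was 7081 and 6822 for T cells, 831 and 1081 for myeloid cells, and 1307 and 1413 for stromal, endothelial and epithelial cells. Of the T cell markers *CD3D*, *CD3G* and *TRAT1* were not well above background in WT and Arp5 KO, and neither were *MPO*, *ELANE*, *S100A8* and *S100A9* of the myeloid list. The other measured members of both lists were well above background on both arrays. The brightest were *ZAP70* of the T cell list, at 5471 units in WT and 5558 in Arp5 KO, and *CD33* of the myeloid list, at 587 and 854.

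Most of the transcriptome was level between Arp5 KO and WT, and genes higher and lower in Arp5 KO were about equally many. A probe was compared when its signal was well above background on at least the brighter of both arrays, and a gene takes the median of its compared probes. When the dimmer array was not well above background, the dimmest probe well above background anywhere on that array stood in for it where that was brighter, and the fold is then given as "at least". That fold is not a strict minimum, because some probes brighter than the stand-in were not well above background either. Of 29912 probes compared, 351 (1.17%) were beyond 2-fold higher in Arp5 KO and 342 (1.14%) beyond 2-fold lower, 156 of these with such a bound. The median log2 ratio was 0.04, and 91.1% of the probes lay within 1.5-fold. Of 13704 genes with a symbol, 157 (1.15%) were higher and 189 (1.38%) lower, with a median of 0.02.

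**Figure D1:**
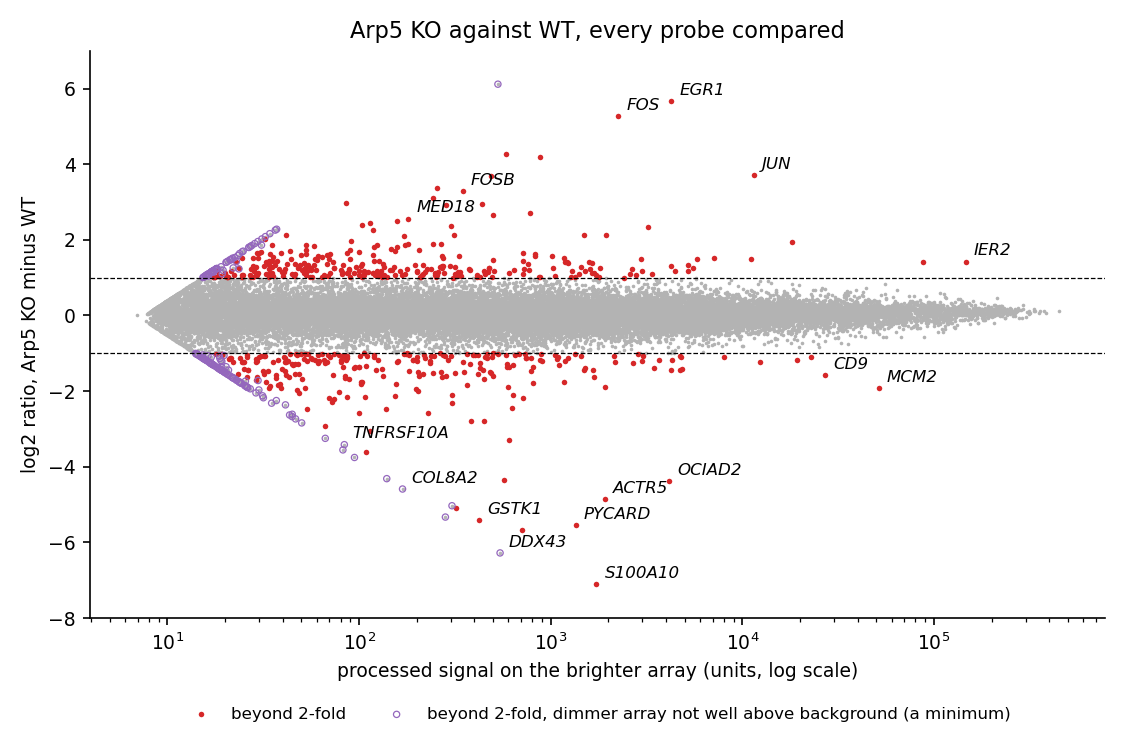
Log2 ratio of Arp5 KO over WT for each of the 29912 probes compared, against the signal of the brighter array in units on a log axis. Red points lie beyond 2-fold (dashed lines), open purple points are bounds, and the points beyond 2-fold gather at low signal.

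Dim probes were beyond 2-fold more often than bright ones. The median brighter signal was 88.2 units for the probes higher in Arp5 KO and 76.4 for the lower ones, against 651 over all probes. Of 5756 probes under 50 units, 132 (2.29%) were higher and 144 (2.50%) lower. Of 8115 probes at 50 to 500 units, 156 (1.92%) were higher and 132 (1.63%) lower. Of 16041 probes at 500 units or more, 63 (0.39%) were higher and 66 (0.41%) lower. Probes spotted several times on each array show the spread within an array: the standard deviation of their log2 ratio had a median of 0.24 for probes under 50 units and 0.032 for those at 500 units or more, here on the dimmer array. There is no replicate array of either genotype, so 1 array per genotype limits the precision of every value, and no difference below could be tested. Genes with every compared probe beyond 2-fold and at 100 units or more on the brighter array numbered 70 higher and 71 lower in Arp5 KO, and the 15 with the largest ratios in each direction are among the genes named below.

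Among genes with a symbol, immediate early genes gave the largest ratios above WT. They encode mostly short-lived transcription factors, and their transcription starts within minutes of a signal with no need for new protein. *EGR1*, a zinc finger transcription factor, gave 85.2 units in WT, 4249 in Arp5 KO, 280.2 in Arp8 KO and 119 in the Arp8 overexpression sample, 50.7-fold higher in Arp5 KO than in WT (log2 5.66). *FOS*, which encodes an AP-1 subunit, gave 58.7, 2237, 306 and 111 units in the same order, 38.7-fold higher (log2 5.27). *FOSB*, a relative of *FOS*, gave 36.2, 347, 82.8 and 54.5 units, 9.71-fold higher (log2 3.28). With a background model (normexp) and quantile normalization these log2 ratios were 4.80, 4.26 and 2.10. That model adds an offset of 50 units to every signal, which pulls the ratios of dim probes toward zero whatever their change. All 3 genes are far higher on the Arp5 KO array than on any other, with the Arp8 KO array next and WT lowest. *JUN*, the partner of *FOS* in AP-1, starts from a higher level, 885 units in WT, 11459.9 in Arp5 KO, 6680.0 in Arp8 KO and 1533 in the Arp8 overexpression sample, and both KO arrays are high (13.2-fold in Arp5 KO, log2 3.72, with a standard deviation of 0.021 over its 10 spots). Both KOs are compared with the same WT array.

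The other members of these families lay closer to WT. Of 9 AP-1 genes measured, *FOS*, *FOSB* and *JUN* were the 3 beyond 2-fold higher and 0 were lower, with a median of 0.62 against 0.02 over all genes. Of 26 other immediate early genes, 8 were beyond 2-fold higher, *EGR1* among them, and 0 lower, the median was 0.49, and 23 lay above zero. Over all genes 1.15% were higher and 1.38% lower. *IER2* was already among the bright transcripts in WT: its brighter probe gave 55197 units in WT, 146116 in Arp5 KO, 67528 in Arp8 KO and 48923 in the Arp8 overexpression sample, and the gene was 2.67-fold higher (log2 1.42). Only the Arp5 KO array stands out. *KLF2*, a transcription factor of quiescent lymphocytes, depends on the probe, with 643 units in WT and 3226 in Arp5 KO on one (log2 2.35) and a log2 ratio of 0.26 on the other. *RGS1*, a regulator of G protein signaling, was dim, with 12.0 units in WT and 28.8 in Arp5 KO (log2 1.29). It came within 2-fold with normexp and quantile normalization (0.26), which the offset brings about by itself at so low a signal.

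The promoters of *EGR1* and *FOS* are shown because these genes had the largest ratios of the family and the factors that bind such promoters are well known. A promoter entry, 250 bases before to 50 after the start, was found for 10 of the 11 AP-1 and other immediate early genes beyond 2-fold higher. The motifs searched on both strands were the CRE (TGACGTCA), the AP-1 site (TGAGTCA or TGACTCA) and the CArG box of serum response factor. The CRE was in 1 of the 10 (*PPP1R15A*, named after its values were seen), the AP-1 site in 0 and the CArG box in 1, against 1.85%, 4.95% and 1.29% of all 35116 promoters. The *EGR1* promoter (chr5:138465229-138465528, + strand, GRCh38.p14, from RefSeq) holds 2 CArG boxes, in capitals, and that of *FOS* (chr14:75278578-75278877, + strand) holds none of these letters in this window. The matches describe the sequences only, and sites outside the window or with other letters were not searched.
EGR1: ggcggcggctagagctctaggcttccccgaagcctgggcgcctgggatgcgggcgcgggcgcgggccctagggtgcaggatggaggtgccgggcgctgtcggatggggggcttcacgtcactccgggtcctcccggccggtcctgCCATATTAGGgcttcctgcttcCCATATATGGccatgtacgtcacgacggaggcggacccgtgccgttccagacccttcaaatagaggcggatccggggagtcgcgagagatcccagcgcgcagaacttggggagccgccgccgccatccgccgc
FOS: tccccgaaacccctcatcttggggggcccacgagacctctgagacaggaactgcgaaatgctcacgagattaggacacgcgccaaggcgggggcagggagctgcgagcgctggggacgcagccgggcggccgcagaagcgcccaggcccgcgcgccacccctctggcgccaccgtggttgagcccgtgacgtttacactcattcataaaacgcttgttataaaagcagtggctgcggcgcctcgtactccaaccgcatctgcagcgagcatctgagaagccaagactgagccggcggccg

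Genes listed for feedback in MAP kinase signaling, many of them induced by it, were mixed. Of 17 measured, 2 were beyond 2-fold higher and 1 lower, against 1.15% and 1.38% of all genes, with a median of 0.16. With normexp and quantile normalization only *PHLDA1* of these stayed beyond 2-fold. *PHLDA1* was higher on each of its 4 probes, with log2 ratios from 1.64 to 2.37, and the brightest gave 452 units in WT, 1935 in Arp5 KO, 1405 in Arp8 KO and 1219.5 in the Arp8 overexpression sample. Here WT is the low array and the others are all high. *DUSP5*, a phosphatase of nuclear ERK, was not well above background in WT and gave 26.6 units in Arp5 KO, at least 3.48-fold higher (log2 1.80). *ETV4*, an ETS transcription factor, was not well above background in Arp5 KO on either probe, at least 5.15-fold lower on the brighter (log2 -2.36) and with a smaller bound on the other.

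A further set of genes was higher on the Arp5 KO array alone. *FOXD1*, a forkhead transcription factor, gave 121 units in WT, 782 in Arp5 KO, 119 in Arp8 KO and 116 in the Arp8 overexpression sample (6.56-fold, log2 2.71) on one probe, and its other probe was not well above background on any array. *HMX1*, a homeobox gene, gave 40.3, 171, 38.4 and 43.5 units (4.32-fold, log2 2.11). Both are level on the 3 other arrays. *GNG11*, a G protein gamma subunit, gave 25.2 units in WT and 256 in Arp5 KO (10.3-fold, log2 3.37, or 1.89 with normexp and quantile normalization). It was not well above background on the Arp8 KO and Arp8 overexpression arrays. *PRKACB*, a catalytic subunit of protein kinase A, has the same order on both of its probes, with 66.2 units in WT and 242 in Arp5 KO on the brighter (log2 1.89) and 20.0 and 104 on the other (log2 2.39). *MAP2*, which binds microtubules, gave 118 units in Arp5 KO, 4.79-fold above WT (log2 2.26, or 0.98 with normexp and quantile normalization), and *CYB5R2*, a cytochrome b5 reductase, gave 37.6 and 283 (log2 2.93). For these 4 genes the Arp5 KO array is the highest, WT lies between, and the remaining arrays are lower still.

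**Figure D2:**
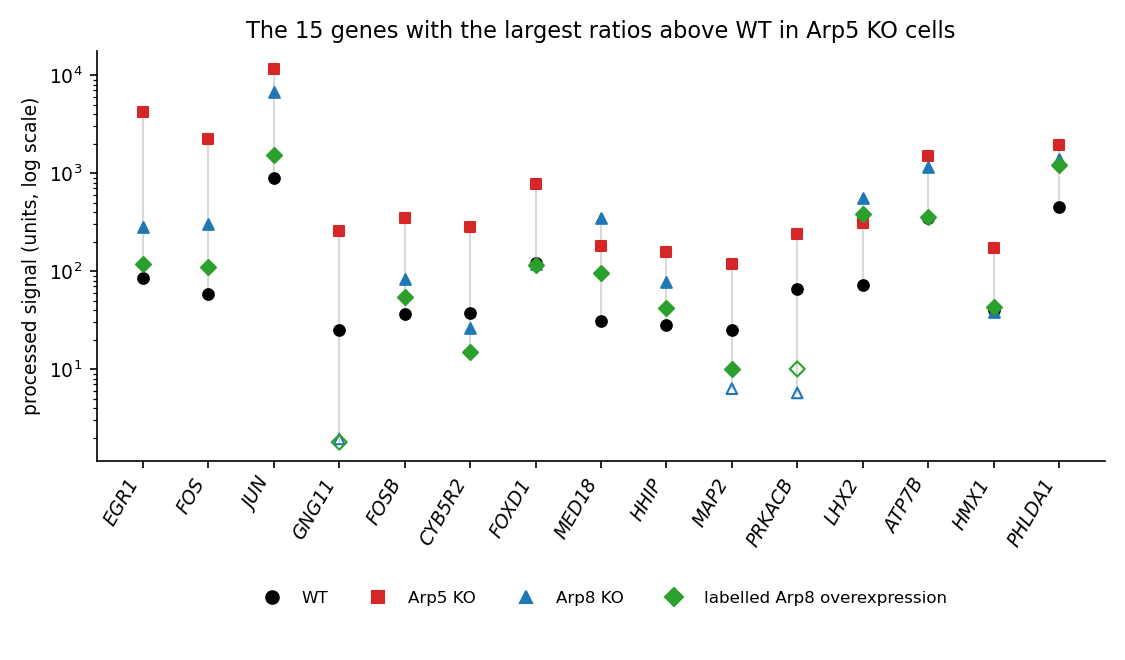
Signal on each of the 4 arrays, in units on a log axis, for the 15 genes with the largest ratio of Arp5 KO over WT by the naming rule. Open markers are not well above background; *FOXD1* and *HMX1* are high on the Arp5 KO array alone, while *MED18* and *LHX2* are high on the Arp8 KO array too.

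Other genes with large ratios above WT were high in Arp8 KO as well. *ATP7B*, a copper-exporting ATPase, gave 349 units in WT, 1492 in Arp5 KO, 1148 in Arp8 KO and 356 in the Arp8 overexpression sample (4.34-fold, log2 2.12). Both KO arrays are high and the other arrays low. *LHX2*, a LIM homeobox transcription factor, gave 72.8, 313, 555 and 385 units (4.37-fold, log2 2.13), and *HHIP*, which binds Hedgehog ligands at the cell surface, gave 28.5, 158, 78.5 and 42.5 units (5.61-fold, log2 2.49). WT is lowest for both, but *LHX2* is highest in Arp8 KO and *HHIP* in Arp5 KO. *MED18*, which encodes a Mediator subunit, was 5.89-fold higher (log2 2.56, or 1.33 with normexp and quantile normalization). It was the only gene beyond 2-fold among 31 Mediator genes, against 1.15% higher and 1.38% lower of all genes. The median of the Mediator genes was 0.03.

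Among the genes lower in Arp5 KO, some were low on the Arp5 KO array alone. *PYCARD*, the adaptor ASC of inflammasomes, gave 1348 units in WT, 28.4 in Arp5 KO, 2459 in Arp8 KO and 3117 in the Arp8 overexpression sample, 46.7-fold lower in Arp5 KO than in WT (log2 -5.55). *GSTK1*, a glutathione transferase of mitochondria and peroxisomes, gave 423, 9.82, 818 and 821 units, 42.4-fold lower (log2 -5.40). *OCIAD2*, an OCIA domain protein, gave 4164, 197, 4934 and 4683 units, 20.8-fold lower (log2 -4.38). With normexp and quantile normalization these log2 ratios were -3.98, -2.75 and -4.04. In all 3 the signal is far lower on the Arp5 KO array and present at WT level or above on the rest, the order seen for *ACTR5* itself. *CCDC3* had it too, with 384, 54.9, 527 and 592 units (6.88-fold, log2 -2.78). *CHST6*, a sulfotransferase of keratan sulfate, gave 154 units in WT and 34.6 in Arp5 KO (4.39-fold, log2 -2.13). *TNFRSF10A*, a TRAIL death receptor, gave 83.7 units in WT and was not well above background in Arp5 KO, at least 10.7-fold lower (log2 -3.42). With normexp and quantile normalization *CHST6* was at -1.04 and *TNFRSF10A* at -1.13.

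The other large ratios below WT came from genes bright on the WT array alone. *S100A10*, the partner of annexin A2, gave 1729 units in WT, 12.3 in Arp5 KO, 11.0 in the Arp8 overexpression sample and a signal not well above background in Arp8 KO. It was 138-fold lower in Arp5 KO (log2 -7.11), the largest ratio that is not a bound, and its log2 ratio was -4.68 with normexp and quantile normalization. *DDX43*, a DEAD-box RNA helicase, gave 544 units in WT and was not well above background on the 3 other arrays, at least 77.7-fold lower in Arp5 KO (log2 -6.28). *COL8A2*, a type VIII collagen chain, had the same order with 169 units in WT, at least 24.1-fold lower (log2 -4.59). With normexp and quantile normalization *DDX43* was at -3.32 and *COL8A2* at -1.76. A WT sample that stands apart and a loss shared by 3 lines cannot be told apart with 1 WT array.

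More genes were brightest in WT, with a weaker signal left in Arp5 KO. *ADTRP*, named as a regulator of tissue factor pathway inhibitor, gave 574 units in WT and 27.7 in Arp5 KO (20.4-fold, log2 -4.35), *SFRP5*, a secreted Wnt antagonist, gave 109 and 8.78 (12.2-fold, log2 -3.61), and *ZNF14*, a zinc finger protein, gave 114 and 13.5 (8.32-fold, log2 -3.06). With normexp and quantile normalization these log2 ratios were -2.66, -1.28 and -1.29. None of the 3 was well above background in Arp8 KO. *CD200*, the ligand of an inhibitory receptor on myeloid cells, gave 197 units in WT, 50.7 in Arp5 KO, 25.2 in Arp8 KO and 41.1 in the Arp8 overexpression sample (3.83-fold, log2 -1.94). *GUCY1B1*, a subunit of soluble guanylate cyclase, gave 204, 50.6, 59.5 and 89.2 units (3.97-fold, log2 -1.99), and *BEST3*, an anion channel, gave 229.6, 37.9, 126 and 99.4 (5.96-fold, log2 -2.58). WT is the highest array for all of these, and Arp5 KO is the lowest for *GUCY1B1* and *BEST3*.

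**Figure D3:**
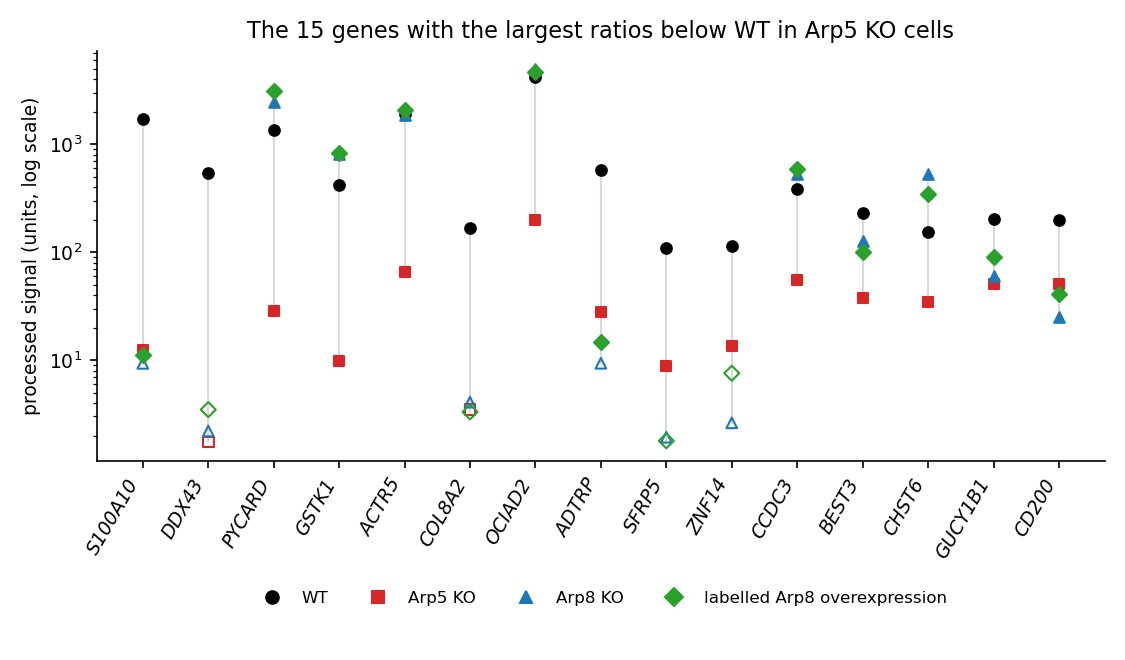
Signal on each of the 4 arrays, in units on a log axis, for the 15 genes with the largest ratio of WT over Arp5 KO by the naming rule. Open markers are not well above background; *PYCARD*, *GSTK1* and *OCIAD2* are low on the Arp5 KO array alone, while *S100A10* and *DDX43* are high on the WT array alone.

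Of the INO80 complex, *ACTR5* was the only gene beyond 2-fold, against 1.15% higher and 1.38% lower of all genes. The other 14 of its 15 genes lay between -0.16 and 0.88, and the median of the 15 was 0.03. *INO80*, the catalytic subunit, was the highest, with 6899.8 units in WT, 12004 in Arp5 KO, 14102 in Arp8 KO and 8070.0 in the Arp8 overexpression sample on its brighter probe (log2 0.82), and 877, 1658, 1876 and 1124 units on the other (log2 0.94). Both KO arrays are the high ones on each probe. *ACTR8* gave -0.11 and 0.08 on its probes, so the transcript of Arp8 was level between Arp5 KO and WT. *ACTR8* gave 1092 units in WT, 785 in Arp8 KO and 679 in the Arp8 overexpression sample on one probe, and 2149, 1654 and 1857 on the other. Both of these samples are lower than WT by little, so they are named here by their labels only. *UCHL5*, a deubiquitinase held by the complex, gave -0.03 on the probe with 10 spots, with a standard deviation of 0.018 over them. *INO80C*, of the same module as Arp5, was next to *INO80* at 0.31, and *ACTL6A*, shared with other remodelers, was lowest of the rest at -0.16. Of 35 genes of other chromatin remodelers, 0 were beyond 2-fold, with a median of -0.13.

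**Figure D4:**
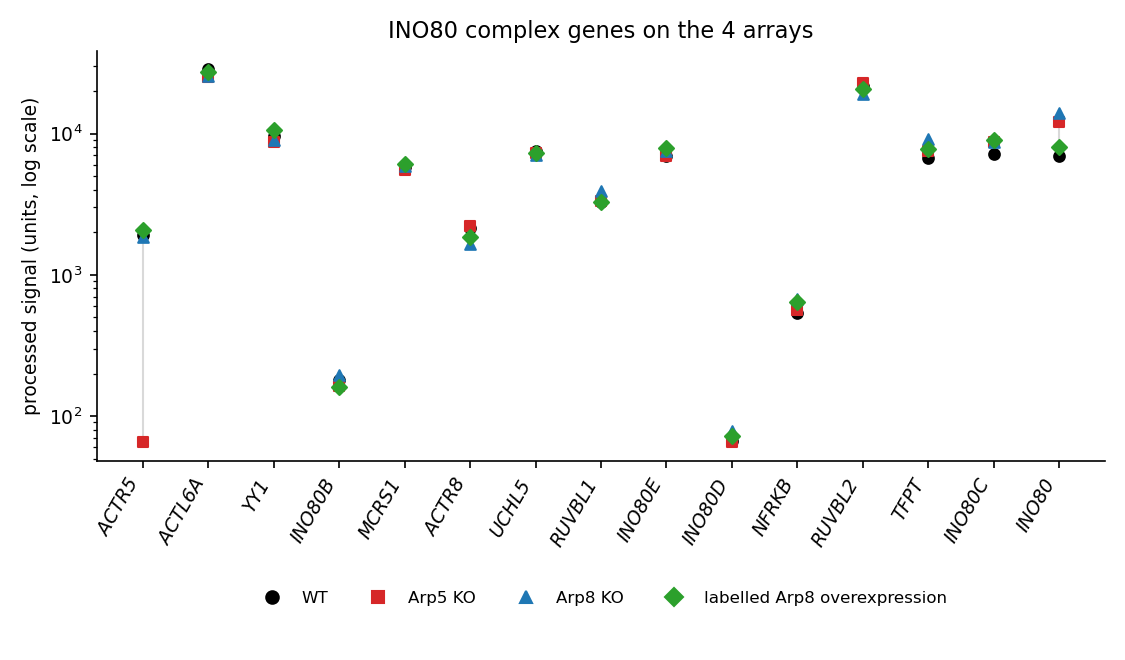
Signal on each of the 4 arrays, in units on a log axis, for the genes of the INO80 complex. *ACTR5* is low on the Arp5 KO array, *INO80* is higher on both KO arrays, and the other genes lie close together.

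The transcripts of the pre-B cell program were largely level. Of 24 genes of pre-B-cell receptor signaling 0 were beyond 2-fold, with a median of -0.08. The same held for 16 genes of V(D)J recombination and end joining (median -0.03) and 15 of MHC class II (median -0.00). Over all genes 1.15% were higher and 1.38% lower, so lists this short would often hold none. *VPREB3*, which associates with newly made mu heavy chains, gave 10009.5 units in WT, 5641 in Arp5 KO, 4411 in Arp8 KO and 10446 in the Arp8 overexpression sample (log2 -0.80). *CD22*, an inhibitory coreceptor, gave 1821, 1074, 537 and 1173 units (log2 -0.74). Arp8 KO is the lowest array and Arp5 KO the next for both. *RAG2*, a subunit of the V(D)J recombinase, gave 3159.8 units in WT and 2244 in Arp5 KO (log2 -0.47).

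The transcription factors of the B lineage had differences in both directions. Of 32 measured, 2 were beyond 2-fold higher and 3 lower, against 1.15% and 1.38% of all genes, with a median of -0.09. With normexp and quantile normalization *POU2F2* and *IRF8* came within 2-fold, as did *PRDM1* and *JCHAIN* of the plasma cell genes below, and *SPI1* was not followed. *ID2*, an inhibitor of E proteins, was higher on both probes, with 2075 units in WT, 5775 in Arp5 KO, 2863 in Arp8 KO and 3510.2 in the Arp8 overexpression sample on the brighter (2.64-fold for the gene, log2 1.40). *BCL6*, a repressor of the germinal center that also acts in pre-B cells, gave 4822, 1794, 1037 and 2246 units, 2.65-fold lower (log2 -1.40). Arp5 KO is the highest array for *ID2*, and WT is the highest for *BCL6*. *POU2F2*, an octamer-binding factor, gave 65.2 units in WT and 148 in Arp5 KO (log2 1.21), and *IRF8*, which cooperates with PU.1, gave 80.8 and 33.6 (log2 -1.24). *SPI1*, the gene of PU.1, named after its values were seen, was the remaining lower factor, at 200.7 units in WT and 86.0 in Arp5 KO (log2 -1.20). Of the plasma cell genes, *PRDM1*, whose product drives that fate, gave 44.2 and 94.1 units (log2 1.11), while *JCHAIN*, the joining chain of IgM and IgA, gave 134 and 43.1 (log2 -1.61).

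The adhesion and homing genes beyond 2-fold were all lower in Arp5 KO. Of 21 measured, 4 (19.0%) were lower and 0 higher, with a median of -0.12, against 1.38% lower and 1.15% higher of all genes. With normexp and quantile normalization *CCR7* and *MADCAM1* came within 2-fold. *CD9*, a tetraspanin, gave 26905 units in WT, 8887 in Arp5 KO, 15356 in Arp8 KO and 15499 in the Arp8 overexpression sample (2.98-fold lower, log2 -1.58). *ITGB2*, the beta chain of leukocyte integrins, gave 809, 310.1, 1432 and 1377 units (2.57-fold, log2 -1.36, standard deviation 0.046 over 10 spots). Arp5 KO is the lowest array for both. *CCR7*, a lymph node homing receptor, lay at the limit with 106 units in WT and 51.9 in Arp5 KO (log2 -1.001), and *MADCAM1*, an addressin, was lower with a median of -1.66 over probes that differ (-2.57 and -0.75).

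Cytokine and interferon genes gave single members beyond 2-fold. Of 29 cytokine receptor and JAK-STAT genes 1 was higher and 1 lower, with a median of -0.01, against 1.15% higher and 1.38% lower of all genes, shares that also stand beside the other lists of this paragraph. *SOCS2*, a feedback inhibitor of STAT5 signaling, was higher on both probes, and the dimmer gave 412 units in WT, 1167 in Arp5 KO, 1348 in Arp8 KO and 438 in the Arp8 overexpression sample (log2 1.52), so both KO arrays are high. *IL2RG*, the common gamma chain, gave 247 units in WT, 116 in Arp5 KO, 31.2 in Arp8 KO and 37.3 in the Arp8 overexpression sample (log2 -1.07). Its log2 ratio was -0.86 with normexp and quantile normalization, 0.84 against the mean of the other 3 arrays and 1.93 against Arp8 KO. Of 40 interferon-stimulated genes 1 was higher and 1 lower, with a median of -0.19, and 28 lay below zero, as did 6323 of the 13704 genes. *OASL*, an antiviral protein, gave 44.7 units in WT and was not well above background elsewhere, at least 6.38-fold lower in Arp5 KO (log2 -2.67). *GBP2*, a guanylate-binding protein, gave 16.5 units in WT and 35.1 in Arp5 KO (log2 1.11). With normexp and quantile normalization *OASL* and *GBP2* came within 2-fold, at -0.70 and 0.35. Of 16 NF-kappaB factors and feedback genes 2 were higher and 0 lower, with a median of 0.02. *TNF* was higher on both probes, with 57.2 units in WT, 436 in Arp5 KO, 124 in Arp8 KO and 87.1 in the Arp8 overexpression sample on the brighter (log2 2.95), a log2 ratio of 1.49 on the probe with 9 spots and 2.22 for the gene, and *BCL3*, a nuclear IkB protein, gave 303, 761, 529 and 445 units (log2 1.35). Arp5 KO is the highest array for these last genes and WT the lowest.

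Genes of hypoxia and glycolysis had medians below zero, as they had on the other arrays against the same WT array. Of 18 hypoxia-induced genes 4 (22.2%, against 1.38% of all genes) were beyond 2-fold lower and 0 higher, the median was -0.30, and 15 lay below zero. *ADM* and *EGLN3* came within 2-fold with normexp and quantile normalization, and *BNIP3* and *BNIP3L* did so against the mean of the other 3 arrays. *BNIP3*, a mitophagy receptor, gave 22890.5 units in WT, 10587 in Arp5 KO, 15130.0 in Arp8 KO and 13264 in the Arp8 overexpression sample (2.13-fold lower, log2 -1.09). Its relative *BNIP3L* was lower on both probes (-1.08 and -1.07), with 8010.1 units in WT and 3718 in Arp5 KO on the brighter. WT is the highest array and Arp5 KO the lowest for both. *ADM*, the vasodilator adrenomedullin, gave 109 units in WT and 42.7 in Arp5 KO (2.52-fold, log2 -1.33), and *EGLN3*, an oxygen sensor that hydroxylates HIF, gave 17.0 units in WT and was not well above background in Arp5 KO, at least 2.42-fold lower (log2 -1.28). Of 22 glycolysis genes 19 lay below zero, with a median of -0.20 and 1 beyond 2-fold lower: *PFKFB4*, which sets the level of an activator of phosphofructokinase, gave 1175, 341, 459 and 342 units (3.39-fold, log2 -1.76). For *PFKFB4* WT is high and the other arrays are alike. Both medians stayed below zero under every scaling tried. Against the mean of the other 3 arrays they were nearer to zero, at -0.18 for hypoxia and -0.05 for glycolysis. Against WT the hypoxia median was -0.14 in Arp8 KO and -0.38 in the Arp8 overexpression sample, and the glycolysis median -0.10 and -0.15.

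**Figure D5:**
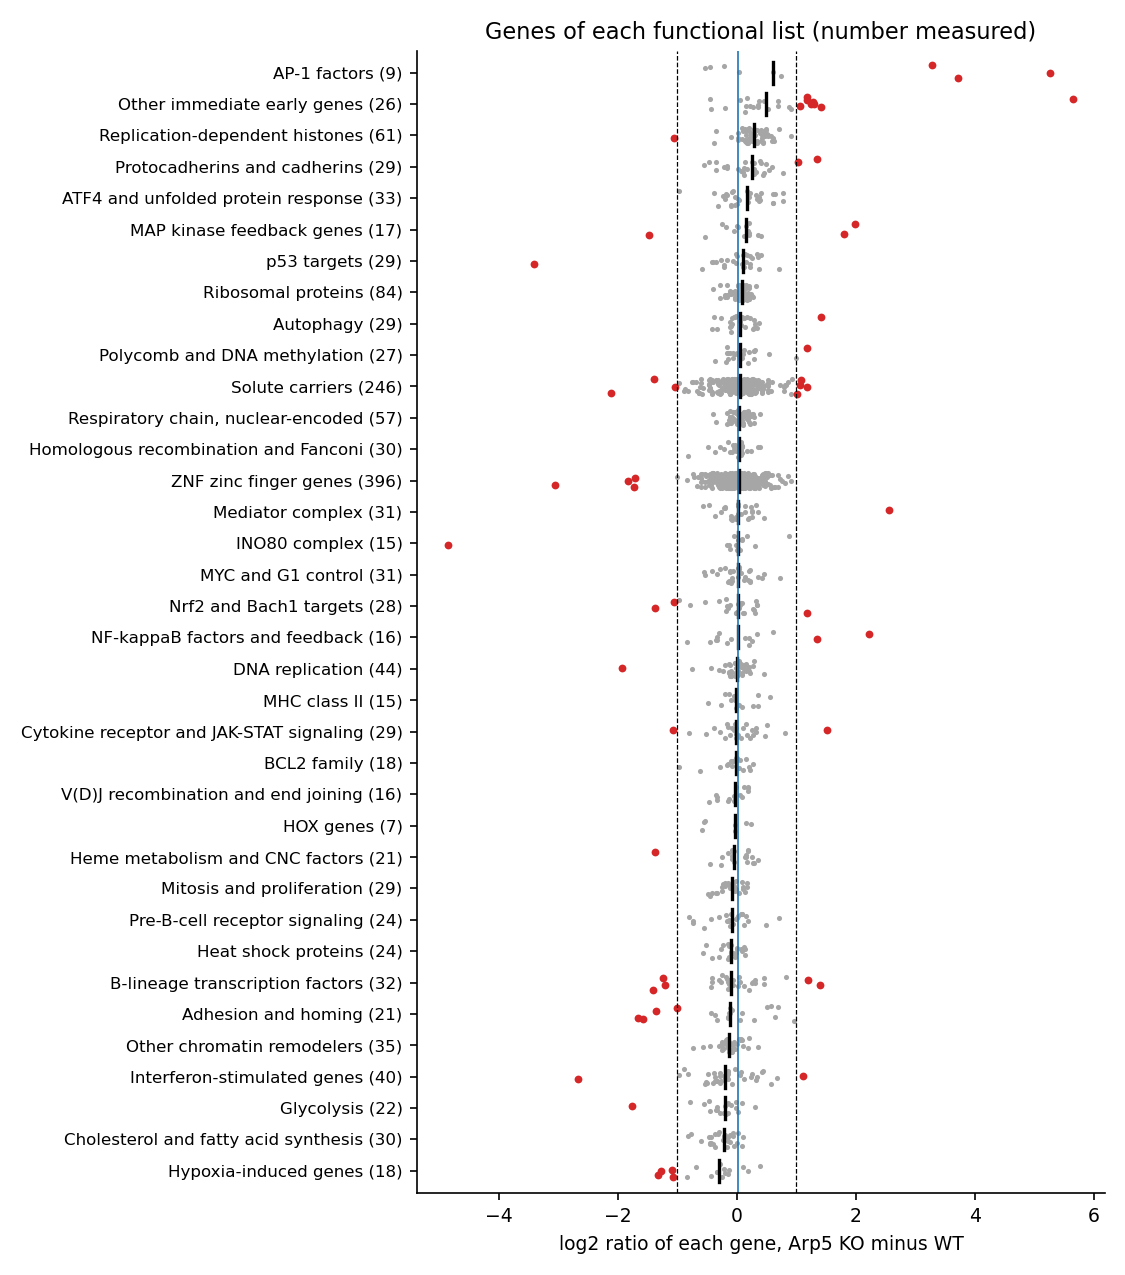
Log2 ratio of Arp5 KO over WT for each measured gene of 36 lists (grey; red beyond 2-fold), with the list median as a black bar and the median of all genes as a blue line. The immediate early lists lie to the right, and hypoxia, glycolysis and cholesterol synthesis to the left.

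In cholesterol and lipid synthesis 27 of 30 genes lay below zero, against 6323 of 13704 over all genes, with a median of -0.21, below zero under every scaling tried, and 0 beyond 2-fold. The median was -0.09 against the mean of the other 3 arrays. Against the same WT array it was 0.05 for Arp8 KO and -0.39 for the Arp8 overexpression sample. *INSIG1*, which holds back the SREBP factors, was among the lowest, with 7845 units in WT, 4387 in Arp5 KO, 5970.0 in Arp8 KO and 4102 in the Arp8 overexpression sample (log2 -0.82). WT is the highest array. The replication-dependent histone genes lay on the other side, with 57 of 61 above zero and a median of 0.29. Of them 1 (*H2BC21*, whose probes ran from -1.60 to 0.54) was beyond 2-fold lower, against 1.38% of all genes. Their median stayed above zero under every scaling tried, and was 0.66 against the mean of the other 3 arrays. Against WT it was -0.12 in Arp8 KO and -0.68 in the Arp8 overexpression sample, with 25 genes beyond 2-fold lower in the latter. The ribosomal protein genes were close to level, with 0 of 84 beyond 2-fold and a median of 0.08, which came to 0.0088 with quantile normalization and to -0.00 with normexp and quantile normalization together. The 57 respiratory chain genes were level as well, with a median of 0.04 and 0 beyond 2-fold.

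Cell cycle and repair genes were level apart from *MCM2*. Of 44 DNA replication genes it alone was beyond 2-fold, against 1.15% higher and 1.38% lower of all genes. The median of the list was 0.00. *MCM2*, a subunit of the replicative helicase, gave 51402 units in WT, 13309 in Arp5 KO, 20075 in Arp8 KO and 48592 in the Arp8 overexpression sample, 3.80-fold lower (log2 -1.93). Both KO arrays are low. The other helicase subunits, named after their values were seen, were within 2-fold: *MCM3*, *MCM5*, *MCM6* and *MCM7* lay between -0.09 and 0.28, and *MCM4* was lower at -0.75. None of 30 homologous recombination and Fanconi genes (median 0.04), 29 mitosis genes (median -0.08) or 31 MYC and G1 genes (median 0.02) was beyond 2-fold. Of 29 p53 targets only *TNFRSF10A* was, lower in Arp5 KO as were 1.38% of all genes, and the median was 0.10.

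Stress genes were level too, with single exceptions in the antioxidant list. Of 33 ATF4 and unfolded protein response genes (median 0.17) and 24 heat shock genes (median -0.09), 0 were beyond 2-fold. Of 28 Nrf2 and Bach1 targets 1 was higher and 2 lower, against 1.15% and 1.38% of all genes, with a median of 0.02. *SLC48A1*, a heme transporter, gave 2337 units in WT, 5206 in Arp5 KO, 4547 in Arp8 KO and 4565 in the Arp8 overexpression sample (2.26-fold higher, log2 1.18). Here WT is the low array. *HMOX1*, which degrades heme, gave 99.6 units in WT and 37.9 in Arp5 KO, lower at -1.37, and was at -0.78 in Arp8 KO. *GPX3*, a secreted glutathione peroxidase, gave 60.8 and 28.8 units, lower in Arp5 KO at -1.06, and was at -0.81 in Arp8 KO. *GSTM3*, a glutathione transferase, gave 10.1 units in WT and was not well above background in Arp5 KO, at least 1.44-fold lower. With normexp and quantile normalization *HMOX1* and *GPX3* came within 2-fold. *WIPI1*, of early autophagosome formation, was the only one of 29 autophagy genes beyond 2-fold, with 603, 1589, 1955 and 2233 units (2.68-fold higher, log2 1.42), and WT is again the low array.

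The absence of a second WT or Arp5 KO array means that differences between cell lines or cultures cannot be told apart from those of the genotype. Folds at dim probes depend on the processing and on the reference array.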

How the data were processed

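RNA of 4 Nalm-6 samples was measured on 1 single-color Agilent array each, of which WT and Arp5 KO form the comparison. Per the file headers, the authors read the arrays with Agilent Feature Extraction 10.5.1.1, and the values used are its processed signal, an intensity in arbitrary units from which background had been subtracted, as deposited. The authors' value table is close to this signal times a single factor per array, and the sources do not give how that factor was chosen. In WT the ratio was 0.847 and lay mostly between 0.822 and 0.872.

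Spots called outliers were left out, repeated spots were averaged on the log2 scale, and each array was scaled to the same 75th percentile. A probe was compared when well above background on the brighter array. Of 41000 probes, 26222 (64.0%) took a gene symbol through their RefSeq accession from a GRCh38.p14 table. Named genes are the INO80 subunits, the 15 largest ratios in each direction among genes with every compared probe beyond 2-fold and at 100 units or more, in each list up to 4 of the largest beyond 2-fold or else the single largest, and *HMOX1*, *GPX3* and *GSTM3*, which the study discusses. Members and lists were chosen with earlier results of these data known.

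Alternatives tried were no scaling, quantile normalization, another 75th percentile, the authors' table, other filters and thresholds, another way to join probes into genes, other reference arrays, and a background model (normexp, offset 50) followed by quantile normalization. The files hold no mean signal, so normexp used the median signal. Scripts ran in Python 3.11.15 (numpy 2.4.6, pandas 2.3.3, matplotlib 3.10.9) and R 4.3.3 (limma 3.58.1), and were tested on simulated data. With 1 array per group there was no replicate check and no test.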

Additional observations from a re-analysis of the deposited data

Results flagged for a closer look

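Some named genes were beyond 2-fold from WT in both KO lines but in opposite directions. As log2 ratios to WT, first in Arp5 KO and then in Arp8 KO, *GNG11* was 3.37 and -1.43, *MAP2* 2.26 and -1.42, and *PRKACB* 2.14 and -1.97. The other direction was seen for *CHST6* at -2.13 and 1.76, *EGLN3* at -1.28 and 1.31, *JCHAIN* at -1.61 and 1.01, *ZNF432* at -1.72 and 1.098, and *ZNF518B* at -1.82 and 1.17. The ratios of *GNG11*, *MAP2* and *PRKACB* in Arp8 KO and those of *EGLN3* and *ZNF432* in Arp5 KO are bounds, since the KO array was not well above background. With normexp and quantile normalization *EGLN3*, *JCHAIN*, *MAP2* and *ZNF432* came within 2-fold in Arp5 KO. Both ratios use the same WT array, and the difference was not tested. The study reports that most of its misregulated genes went the same way in both KO cells, and genes that did so were not counted here.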

How the results depend on the processing

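The probe counts beyond 2-fold, 351 higher and 342 lower in Arp5 KO, depend on both the threshold and the treatment of dim probes. With normexp on the median signal, an offset and quantile normalization together, 80 were higher and 98 lower, and the log2 ratio of *ACTR5* was -3.99 in place of -4.85. Quantile normalization alone gave 311 and 407, and -4.93 for *ACTR5*, and kept 70 of the 72 named genes beyond 2-fold. The other steps were not tested apart. Under normexp, the offset and quantile normalization together 46 of the 72 named genes beyond 2-fold stayed so, and 26 came within 2-fold: *ADM*, *CCR7*, *DUSP5*, *EGLN3*, *ETV4*, *GBP2*, *GPX3*, *H2BC21*, *HMOX1*, *IL2RG*, *IRF8*, *JCHAIN*, *MADCAM1*, *MAP2*, *OASL*, *PCDHB11*, *PCDHGA12*, *POU2F2*, *PRDM1*, *RGS1*, *SLC12A3*, *SLC25A2*, *SLC37A3*, *TET1*, *ZNF432* and *ZNF585B*. Larger folds shrank too, *TNFRSF10A* from -3.42 to -1.13, *COL8A2* from -4.59 to -1.76, *S100A10* from -7.11 to -4.68, *DDX43* from -6.28 to -3.32, *GSTK1* from -5.40 to -2.75, *ADTRP* from -4.35 to -2.66, *SFRP5* from -3.61 to -1.28 and *ZNF14* from -3.06 to -1.29. Among higher genes, *EGR1* went from 5.66 to 4.80, *FOS* from 5.27 to 4.26 and *FOSB* from 3.28 to 2.10. *JUN* moved little, from 3.72 to 3.59. Others that shrank were *GNG11* (3.37 to 1.89), *CYB5R2* (2.93 to 1.76), *MED18* (2.56 to 1.33), *HHIP* (2.49 to 1.21) and *HMX1* (2.11 to 1.07). The lower genes *PYCARD* (-5.55 to -3.98), *CHST6* (-2.13 to -1.04) and *CCDC3* (-2.78 to -1.95) shrank too. With no filter and no bound the counts were 1236 and 937, and with 100 units or more asked of the brighter array they were 166 and 149. A threshold of 1.5-fold gave 1499 and 1160, 3-fold gave 76 and 108, and counting gene symbols gave 157 and 189. Against the Arp8 KO array in place of WT, 532 probes were higher and 397 lower; the cause was not tested.

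Some genes had the other sign against another reference. Against the mean of the other 3 arrays, 37 of 68 named genes with a value stayed beyond 2-fold, 28 came within it and 3 had the other sign, and the log2 ratio was 0.84 for *IL2RG*, 0.055 for *SFRP5* and 0.075 for *ZNF14*, the last of these with most of the 3 arrays not well above background, as for *SFRP5*, so that their sign is not well measured. Against Arp8 KO, 28 stayed beyond 2-fold, 26 came within it, 13 had the other sign and *SFRP5* gave no ratio. The log2 ratio was 1.59 for *ADTRP*, 0.83 for *BCL6*, 1.05 for *CD200*, 0.37 for *H2BC21*, 1.93 for *IL2RG*, 0.29 for *MADCAM1*, 0.43 for *S100A10* and 0.55 for *ZNF14*, all lower against WT, and -0.016 for *DUSP5*, -0.78 for *LHX2*, -0.90 for *MED18*, -0.22 for *SOCS2* and -0.26 for *WIPI1*, all higher against WT. Those of *ADTRP*, *S100A10* and *ZNF14* are lower bounds, since the Arp8 KO array was not well above background. The cause was not tested.

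No paired analysis was possible because the labels pair no samples and there is a single array per genotype.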

Other observations

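A few named genes are on longer family lists. Of 396 zinc finger genes 4 (1.01%, against 1.38% of all genes) were beyond 2-fold lower and 0 higher, with a median of 0.04, among them *ZNF518B*, lower on both probes with 1928 units in WT and 515 in Arp5 KO on the brighter (log2 -1.88). Of 246 solute carriers 4 were higher and 3 lower (1.63% and 1.22%, against 1.15% and 1.38% of all genes), with a median of 0.05, and *SLC37A3*, a transporter of the lysosome, gave 639 units in WT and 146 in Arp5 KO on its brightest probe (log2 -2.11). *TET1*, which oxidizes methylated cytosine, was the only one of 27 Polycomb and DNA methylation genes beyond 2-fold, with 33.3 units in WT and 70.8 in Arp5 KO on one probe and a log2 ratio of 1.18 for the gene.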
